A study of Homo sapiens with 8 samples.

Results

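The genes described here encode enzymes whose chromatin marks counter Polycomb repressive complex 2 (PRC2): the H3K27 demethylase KDM6B, the H3K4 methyltransferases KMT2A, KMT2B, KMT2C and KMT2D, and the H3K36 methyltransferases NSD1, NSD2, NSD3, SETD2 and ASH1L. These 10 genes, of 19962 protein-coding genes in GENCODE 44, were chosen by function, and every ATAC-Seq peak in their gene bodies or within 5 kb of any of their transcription start sites was taken. Overlapping peaks from different libraries (by 1 bp or more) were joined into a region, and 45 of the 61878 regions open in at least 2 libraries belonged to these genes.

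ATAC-Seq, in which the Tn5 transposase cuts open chromatin, was performed on 4 stable lines made from HEK293T, a human embryonic kidney line, with 2 replicates per line. Each line expressed a lentiviral EZH2: the wild-type protein (EZH2 WT), EZH2 Y641F, EZH2 A677G, or the double mutant EZH2 H689A/F667I. All of them kept the EZH2 gene of HEK293T itself. In the study, the single mutants are gain-of-function (GOF) forms of the methyltransferase and the double mutant a loss-of-function (LOF) form. Blasticidin was used to select monoclonal populations, so each line may be 1 clone, and a difference between lines cannot be told apart from a difference between clones. The promoters of VIM, PAX2, NEFM, LIN28B and GATA3, which HEK293T cells use, held a peak in 8 of 8 libraries. Of the markers of other cell types, PTPRC, CD3E and ALB held none in any library, and HBB held one in 2 libraries.

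The number of peaks differed widely between libraries and stands beside every result here. The WT lists held 64923 and 62514 peaks, those of Y641F 26350 and 36598, those of A677G 38016 and 46358, and those of H689A/F667I 47840 and 48755. The median promoter peak width over all genes followed a like order, at 1168 and 1154 bp in WT, 747 and 880 bp in Y641F, 871 and 939 bp in A677G, and 971 and 992 bp in H689A/F667I. The read depth behind these lists is unknown, so a region without a called peak is not a region without signal. The part of peak number in the differences between lines was not tested directly, and results for libraries reduced to the same number of peaks are given where they change a call.

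EZH2 is the subunit of PRC2 that methylates lysine 27 of histone H3, and its trimethylated product, H3K27me3, marks silent genes. KDM6B removes this mark. The KMT2 enzymes work in COMPASS-like complexes: KMT2A and KMT2B place H3K4me3 at promoters, and KMT2C and KMT2D place H3K4me1 at enhancers. NSD1, NSD2, NSD3 and ASH1L make H3K36me2, SETD2 makes H3K36me3 in transcribed gene bodies, and nucleosomes with these K36 marks are poor substrates for PRC2.

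The sequence at the start sites is shown first, since the region at the main start was open in all 8 libraries in each of the 10 genes. RefSeq promoters of 300 bases (assembly GRCh38.p14, from 250 bases before to 50 after the start) were found for 9 of the 10 genes, all but NSD3, and all 9 began at the main GENCODE start used here. The promoters of KMT2C and KMT2A, the members that passed the test of promoter width in Y641F, and of KDM6B, the demethylase, are printed 5′ to 3′ on the strand of the gene, and capitals mark GGGCGGG, the core of an SP/KLF site, or its reverse complement.
KMT2C promoter, chr7:152435954-152436253, minus strand: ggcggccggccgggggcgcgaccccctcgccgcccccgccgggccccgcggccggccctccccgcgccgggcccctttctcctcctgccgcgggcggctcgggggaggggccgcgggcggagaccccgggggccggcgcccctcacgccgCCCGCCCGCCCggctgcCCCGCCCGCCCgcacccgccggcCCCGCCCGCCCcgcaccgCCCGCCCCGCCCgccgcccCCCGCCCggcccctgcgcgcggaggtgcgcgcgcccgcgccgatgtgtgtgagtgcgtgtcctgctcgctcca
KMT2A promoter, chr11:118436242-118436541, plus strand: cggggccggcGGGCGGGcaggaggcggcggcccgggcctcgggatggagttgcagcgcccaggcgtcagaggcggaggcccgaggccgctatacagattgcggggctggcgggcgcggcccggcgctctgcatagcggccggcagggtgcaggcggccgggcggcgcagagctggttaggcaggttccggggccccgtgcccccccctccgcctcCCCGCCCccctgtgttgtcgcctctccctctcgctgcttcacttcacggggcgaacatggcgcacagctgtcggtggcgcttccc
KDM6B promoter, chr17:7833967-7834266, plus strand: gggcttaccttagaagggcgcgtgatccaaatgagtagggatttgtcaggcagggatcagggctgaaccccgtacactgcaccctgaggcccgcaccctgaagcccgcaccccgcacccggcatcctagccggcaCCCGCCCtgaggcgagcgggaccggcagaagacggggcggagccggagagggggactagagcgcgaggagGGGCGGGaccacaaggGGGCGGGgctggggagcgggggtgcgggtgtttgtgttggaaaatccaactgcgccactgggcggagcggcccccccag

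These promoters are rich in G and C. KMT2C was 88.7% G or C, a share that only 2 of 15315 RefSeq promoters exceeded, and NSD2 was 86.7%, exceeded by 15. The other 7 ran from 65.0% in KMT2D to 83.3% in KMT2B, and the median of the 9 was 76.3% against 63.7% over all promoters. GGGCGGG, searched on both strands, occurred in 9 of 9 promoters and in 47.5% of all promoters. KMT2C held 9 copies, NSD2 6, KDM6B 3, KMT2A and KMT2B 2 each, and the others 1 each. A match to the CTCF motif lay in the KDM6B promoter, where it overlapped a GGGCGGG, against 4.83% of all promoters. AAGATGGC, the core of a YY1 site, was in the KMT2B promoter and 4.16% of all, and the E-box CACGTG in the KMT2D promoter and 8.85% of all.

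Away from the promoters, 4 windows of 300 bases around region centres are printed from the plus strand of hg38. The first pair lost their peak in all 3 mutants, the third was lost in Y641F and H689A/F667I and lies over an intron-exon boundary, and the last was open in all 8 libraries. Capitals mark a match to the CTCF motif, searched on both strands.
KDM6B exons 18 and 19, chr17:7851736-7852035: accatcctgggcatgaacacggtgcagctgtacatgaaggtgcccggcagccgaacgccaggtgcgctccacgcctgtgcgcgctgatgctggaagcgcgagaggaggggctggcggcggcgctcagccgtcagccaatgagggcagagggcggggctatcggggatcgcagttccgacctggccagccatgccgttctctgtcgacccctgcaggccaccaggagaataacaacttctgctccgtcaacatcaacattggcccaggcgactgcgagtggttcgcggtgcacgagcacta
NSD1 intron 2, chr5:177153991-177154290: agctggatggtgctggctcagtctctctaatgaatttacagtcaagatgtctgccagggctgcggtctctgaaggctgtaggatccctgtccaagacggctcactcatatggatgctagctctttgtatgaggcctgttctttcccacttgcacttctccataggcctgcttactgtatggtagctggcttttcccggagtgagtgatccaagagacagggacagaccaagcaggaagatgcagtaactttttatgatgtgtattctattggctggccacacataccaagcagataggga
KMT2A intron 10 and exon 11, chr11:118488473-118488772: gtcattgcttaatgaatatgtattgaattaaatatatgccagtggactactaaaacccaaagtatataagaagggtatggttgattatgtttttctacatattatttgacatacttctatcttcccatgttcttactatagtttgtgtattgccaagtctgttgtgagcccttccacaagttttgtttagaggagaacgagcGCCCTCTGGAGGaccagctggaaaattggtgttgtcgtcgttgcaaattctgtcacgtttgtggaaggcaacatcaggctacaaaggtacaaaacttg
NSD2 intron 1, chr4:1899215-1899514: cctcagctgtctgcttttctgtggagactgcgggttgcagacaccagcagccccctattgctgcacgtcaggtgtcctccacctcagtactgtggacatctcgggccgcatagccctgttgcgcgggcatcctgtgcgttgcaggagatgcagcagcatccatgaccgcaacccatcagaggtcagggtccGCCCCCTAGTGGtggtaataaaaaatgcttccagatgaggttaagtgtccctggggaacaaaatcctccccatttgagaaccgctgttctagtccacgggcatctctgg

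Among the 32 regions of these genes that lay off promoters, 4 held a CTCF match in the central 300 bases, against 14.6% of 27382 such regions of all genes. They included the NSD2 window above, open in 8 libraries, a KMT2D region 16.4 kb from the start, open in 7, and the KMT2A window, open in 3. The AP-1 site TGANTCA was found in 3 of the 32, against 12.8%, in NSD2 68.6 kb, ASH1L 34.9 kb and SETD2 128.2 kb from the start. The windows of the KDM6B and NSD1 regions that were lost in all 3 mutants held neither motif.

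**Figure D1:**
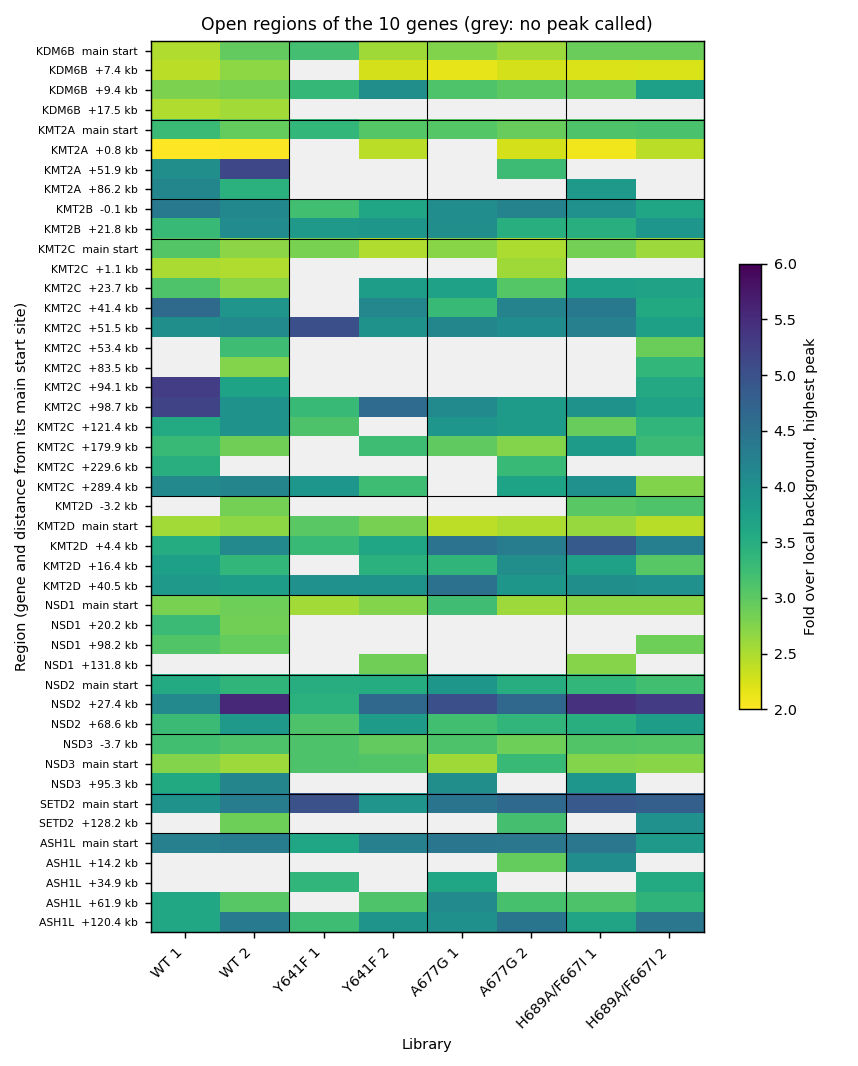
The 45 regions of the 10 genes (rows, ordered by gene and by distance in kb from the main start site) in the 8 libraries (columns); the colour is the fold over local background of the strongest peak, and grey means no called peak. The rows at the main starts are filled in all libraries, except the KMT2A row at 0.8 kb, and Y641F replicate 1 has the fewest open regions, 23, where WT replicate 2 has the most, 41.

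Of the 45 regions, 20 were open in all 8 libraries, against 30.4% of all regions. Regions at promoters, those within 1 kb of the main start of any protein-coding gene, were open in all 8 in 12 of 13 cases, against 78.1% of all promoter regions. The exception was the second KMT2A region, centred in intron 1 (chr11:118437259-118438085), which had no peak in Y641F replicate 1 and A677G replicate 1. Of the other 32 regions, 8 were open in all 8 libraries, against 16.9% of all such regions in or near genes. A further 6 regions were closed only in Y641F replicate 1, the library with the fewest peaks, against 7.97% of all regions.

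KDM6B, on chromosome 17 (7834217 to 7854796, plus strand), had the broadest promoter peak of the 10 genes in both H689A/F667I libraries, WT replicate 1 and A677G replicate 1. The promoter peaks spanned 3269 and 2702 bp in WT, 0 and 1508 bp in Y641F, 2647 and 1991 bp in A677G, and 2785 and 2536 bp in H689A/F667I. Both Y641F libraries lay below all others. In Y641F replicate 1 the region was still open, but its 671 bp peak (fold 3.20, −log10 p 6.59) lay more than 1 kb downstream of the start and so did not count as a promoter peak. The log2 difference in width between Y641F and WT was −2.94 (SE 1.17) and did not pass the test (adjusted p = 0.13, limma). Its size rests on the 0 bp of Y641F replicate 1, which entered as the pseudocount of 100 bp. With a window of 5 kb the difference was −1.33 (SE 0.42, adjusted p = 0.077, limma), which also did not pass. The differences for A677G (−0.36) and H689A/F667I (−0.16) were smaller than their standard errors.

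At the KDM6B start the fold moved little, while the −log10 p was lower in the GOF libraries that had a promoter peak. The median promoter −log10 p over all genes was also lower in the GOF libraries, from 7.39 to 9.01, than in either WT library. The fold of the peak, the ratio of pileup to local background, was 2.48 and 2.96 in WT, and 2.57 in Y641F replicate 2. A677G had 2.75 and 2.59, and H689A/F667I 2.92 and 2.91. The WT replicates alone spanned this whole range, so no line stood apart. A region 9.4 kb into the gene, over exon 3 and an alternative start (chr17:7843608-7845253), was open in all 8 libraries with folds from 2.79 to 4.02. Its width was 1461 and 1477 bp in WT but 244 and 550 bp in Y641F, while the fold was 2.79 and 2.83 in WT and 3.33 and 4.02 in Y641F: a narrower peak with a higher fold. At exons 18 and 19 (chr17:7851721-7852095, printed above) the WT peaks of 280 and 236 bp were weak, with −log10 p of 3.76 and 3.85, and no mutant library had a peak.

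The promoter-placed H3K4 methyltransferases KMT2A and KMT2B differed from each other. KMT2A, a frequent partner in leukaemia fusions, lies on chromosome 11 (118436456 to 118526832, plus strand). Its promoter peaks spanned 2332 and 2752 bp in WT, 1242 and 1442 bp in Y641F, 1211 and 1794 bp in A677G, and 1902 and 2122 bp in H689A/F667I. These widths are sums. They held a second peak, of 768 and 827 bp in WT and 679 bp in H689A/F667I replicate 2, from the region 0.8 kb into the gene. In Y641F replicate 2, A677G replicate 2 and H689A/F667I replicate 1 the peak of that region, of 432, 378 and 375 bp, lay beyond 1 kb of the start and was not counted. The sums of all 4 GOF libraries were below those of the 4 others, but the peak at the start itself overlapped. It measured 1564 and 1925 bp in WT, 1242 and 1442 bp in Y641F and 1902 and 1443 bp in H689A/F667I, and A677G replicate 2, at 1794 bp, was above WT replicate 1. The summed promoter width of KMT2A fell in Y641F, with a log2 difference of −0.87 (SE 0.20, adjusted p = 0.045, limma), which was −0.30 relative to the median of all genes. With a window of 5 kb it was −0.69 (SE 0.30, adjusted p = 0.14) and did not pass, and KMT2A passed in 7 of the 16 settings tried, the one reported included. In A677G the difference was −0.74 (SE 0.20, adjusted p = 0.16), and in H689A/F667I it was −0.32 (SE 0.20, adjusted p = 0.70). The fold did not follow, at 3.27 and 2.94 in WT and 3.35 and 3.06 in Y641F.

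KMT2B, on chromosome 19 (35717973 to 35738880, plus strand), had nearly level widths in Y641F and WT. Its promoter peak, just upstream of the start, measured 1389 and 1365 bp in WT, 1318 and 1328 bp in Y641F, 1258 and 1066 bp in A677G, and 1064 and 1404 bp in H689A/F667I. The Y641F difference was −0.05 (SE 0.15, adjusted p = 0.78), against a median over all genes of −0.57. With only peaks of −log10 q of at least 5, KMT2B passed the test, at −3.88 in Y641F (SE 0.21, adjusted p = 0.00011) and −1.98 in GOF lines against the rest (SE 0.15, adjusted p = 0.00045). That limit removed both Y641F peaks, whose −log10 q was 2.58 and 4.88, and kept those of A677G. The size of both differences was therefore set by the pseudocount in Y641F and not by a measured width. With all peaks it was the fold that was lower, at 4.39 and 4.13 in WT against 3.21 and 3.64 in Y641F. Those libraries did not overlap, and the log2 difference of −0.32 (SE 0.10, adjusted p = 0.074) missed the threshold. KMT2B had no peak inside its gene body beyond the promoter in any library.

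KMT2C and KMT2D, the enhancer enzymes, had the lowest mean promoter folds of the members with a promoter peak in every library. By mean −log10 p, NSD1 (4.99) lay between KMT2C (4.79) and KMT2D (5.09). Over 8 libraries the mean promoter fold of KMT2D was 2.62 and that of KMT2C 2.71, at the 0.419 and 0.821 percentile of the 10968 genes with a promoter peak in every library. KMT2C lies on chromosome 7 (152134922 to 152436644, minus strand). Its promoter peaks spanned 1282 and 1320 bp in WT, 658 and 478 bp in Y641F, 570 and 686 bp in A677G, and 670 and 1055 bp in H689A/F667I. The WT replicates were close to each other and above all 6 mutant libraries. KMT2C narrowed in Y641F by −1.08 on the log2 scale (SE 0.26, adjusted p = 0.049, limma), or −0.51 relative to the median of all genes. This call stood at the threshold and was made in 4 of the 15 settings tried, the one reported included. It was lost without either A677G library (adjusted p = 0.070), without Y641F replicate 2 (adjusted p = 0.065) and with a pseudocount of 10 bp (adjusted p = 0.056), and held with a window of 5 kb (−1.86, SE 0.34, adjusted p = 0.024). The A677G difference was −0.95 (SE 0.26, adjusted p = 0.16) and the H689A/F667I difference −0.57 (SE 0.26, adjusted p = 0.58). The −log10 p of the peak was 7.85 and 5.47 in WT. Y641F had 4.45 and 3.54, A677G 4.08 and 3.99, and H689A/F667I 4.88 and 4.04, so it was again highest in WT. This order is not particular to KMT2C. The median promoter −log10 p over all genes ran from 7.39 to 9.30 in the mutant libraries and was higher in both WT libraries.

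KMT2D lies on chromosome 12 (49018975 to 49060794, minus strand). Its promoter peaks spanned 1356 and 1133 bp in WT, 436 and 840 bp in Y641F, 764 and 706 bp in A677G, and 759 and 879 bp in H689A/F667I. All 6 mutant libraries lay below both WT libraries. The Y641F difference of −0.92 (SE 0.29, adjusted p = 0.084) did not pass the test. The promoter fold of KMT2D went the other way in Y641F, at 3.02 and 2.82 against 2.55 and 2.67 in WT, with a log2 difference of 0.16 (SE 0.08, adjusted p = 0.23).

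**Figure D2:**
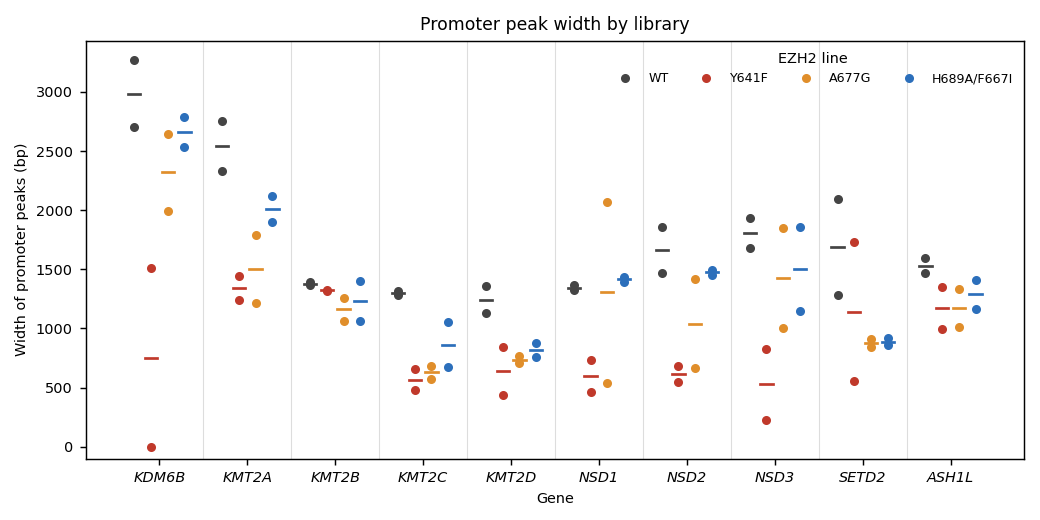
Width in bp of the promoter peaks of each gene (x axis) in each library (points, coloured by line); the short bars are line means over 2 libraries. In 9 of the 10 genes both Y641F libraries lie below both WT libraries, with KMT2B nearly level and SETD2 overlapping.

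Among the H3K36me2 enzymes, NSD2 and NSD3 had the larger differences in Y641F. NSD1, mutated in Sotos syndrome, lies on chromosome 5 (177131830 to 177300213, plus strand). Its promoter peaks spanned 1366 and 1326 bp in WT, 463 and 731 bp in Y641F, 540 and 2071 bp in A677G, and 1395 and 1436 bp in H689A/F667I. Y641F was low, H689A/F667I was just above WT, and the A677G replicates were far apart. The Y641F difference was −1.08 (SE 0.55, adjusted p = 0.19) and the H689A/F667I difference 0.07 (SE 0.55, adjusted p = 1).

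NSD2, on chromosome 4 (1871393 to 1982207, plus strand), is the enzyme driven by the t(4;14) translocation of myeloma. Its promoter peaks spanned 1859 and 1468 bp in WT, 543 and 685 bp in Y641F, 1415 and 665 bp in A677G, and 1494 and 1454 bp in H689A/F667I. The 4 GOF libraries were below the 4 others. The Y641F difference was −1.30 (SE 0.33, adjusted p = 0.055), close to the threshold, and the A677G difference −0.70 (SE 0.33, adjusted p = 0.35). The fold of NSD2 was steady, at 3.56 and 3.38 in WT and 3.50 and 3.53 in Y641F.

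NSD3 lies on chromosome 8 (38269704 to 38382272, minus strand). Its promoter peaks spanned 1679 and 1937 bp in WT, 229 and 827 bp in Y641F, 1852 and 1002 bp in A677G, and 1858 and 1147 bp in H689A/F667I. The narrow peaks of Y641F had folds of 3.12 and 3.08, above the 2.75 and 2.59 of WT. Width differed by −1.79 (SE 0.54, adjusted p = 0.079) and fold by 0.22 (SE 0.10, adjusted p = 0.20), neither past the threshold.

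SETD2 and ASH1L had the strongest promoter peaks. SETD2, the enzyme of H3K36me3, lies on chromosome 3 (47016428 to 47164113, minus strand), and its peaks spanned 2093 and 1279 bp in WT, 552 and 1732 bp in Y641F, 909 and 845 bp in A677G, and 857 and 922 bp in H689A/F667I. It was the only one of the 10 in which the Y641F and WT libraries overlapped in width. The fold was 3.96 and 4.30 in WT. Y641F had 5.00 and 3.92, A677G 4.45 and 4.63, and H689A/F667I 4.88 and 4.79. Both A677G and both H689A/F667I libraries were above WT, by 0.14 (SE 0.12, adjusted p = 0.62) and 0.23 (SE 0.12, adjusted p = 0.61) on the log2 scale, which did not pass the test.

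ASH1L lies on chromosome 1 (155335268 to 155563162, minus strand), and its promoter region also held the start of MSTO1. The peaks spanned 1598 and 1465 bp in WT, 1350 and 996 bp in Y641F, 1009 and 1336 bp in A677G, and 1166 and 1412 bp in H689A/F667I, below WT in every mutant library. The differences were −0.37 in Y641F and A677G alike and −0.24 in H689A/F667I (SE 0.20 each), and the Y641F value was smaller than the median fall of all genes.

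Over the set, 2 of 10 members, KMT2A and KMT2C, passed the test of promoter width between Y641F and WT, both lower, where 11.8% of 13857 genes passed. At an unadjusted p under 0.05 the members numbered 6, against 37.2% of all genes. The members' median difference was −0.998 against −0.57 for all genes. None of the 10 passed in A677G (1.17% of all genes), H689A/F667I (0% of all genes) or GOF lines against WT and H689A/F667I together (6.02%), and at an unadjusted p under 0.05 the members numbered 2, 0 and 4, against 16.8%, 9.46% and 29.3% of all genes. The median differences were −0.53, −0.26 and −0.68 against −0.32, −0.20 and −0.34 for all genes. All 3 comparisons with WT share the same WT libraries.

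The libraries of Y641F were all lower than those of WT in 9 of the 10 members, but so were 76.5% of all genes. For A677G this count was 8 (61.5% of all genes) and for H689A/F667I it was 5 (49.8%). KMT2A and NSD2 were the members in which all 4 GOF libraries lay below the other 4, against 15% of all genes. In KMT2A this was so for the summed width and not for the peak at the start alone. KMT2A and KMT2C did not pass with each library centred on its median over all genes (adjusted p = 0.36 and 0.34). They also did not pass with the 26350 strongest peaks of each library (adjusted p = 0.31 and 0.84). With those peaks KMT2D turned to 2.83 (SE 0.48, adjusted p = 0.035, limma). Both KMT2D promoter peaks of WT were left out by that cut, so this value does not mean a wider peak in Y641F. Without either WT library, or without Y641F replicate 1, no member passed, and without Y641F replicate 2 the number was 5, where 34.8% of all genes passed.

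**Figure D3:**
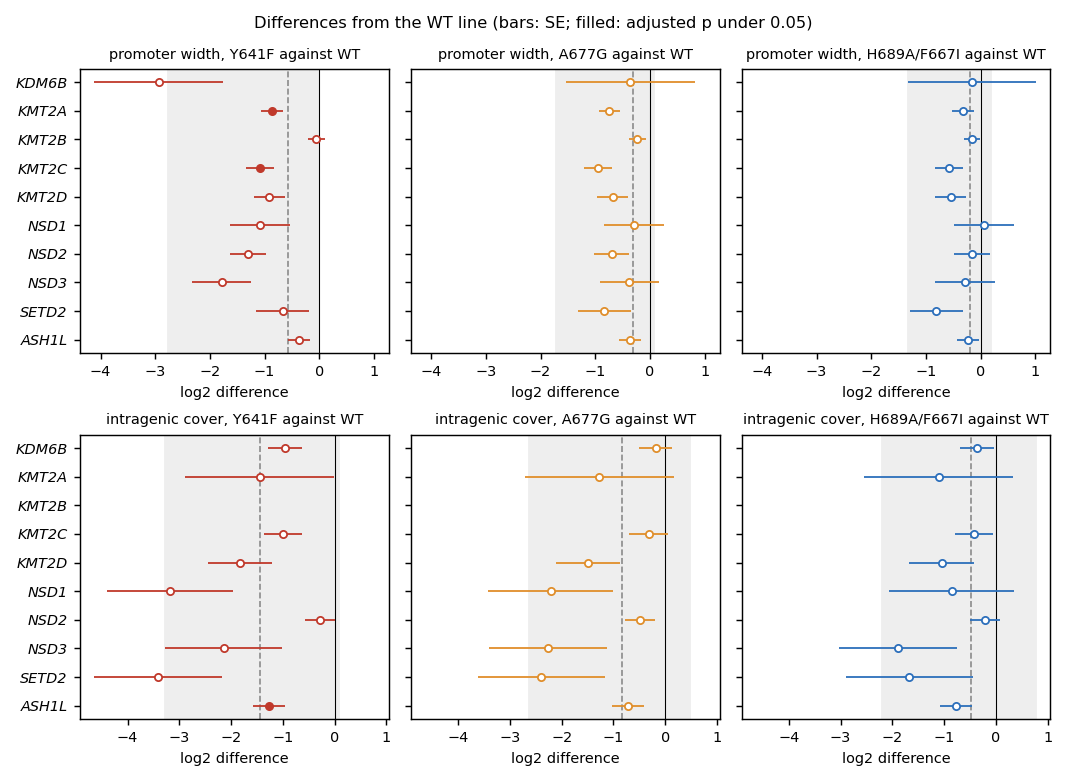
Log2 differences between each mutant and WT for promoter width (top) and for gene body length covered by other peaks (bottom); points are limma estimates with bars of 1 SE, filled where the adjusted p was under 0.05. The dashed line is the median of all genes tested and the grey band their 5th to 95th percentile; the filled points are KMT2A and KMT2C for width and ASH1L for intragenic cover, all in Y641F.

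In fold, none of the 9 members with a promoter peak in every library passed in any comparison. In Y641F against WT 5.06% of 10968 genes passed, and 1 member, KMT2B, had an unadjusted p under 0.05, against 25.4% of all genes. The shares were 0% in A677G and in H689A/F667I and 0.976% for GOF against the rest, each with 0 members at an unadjusted p under 0.05, against 14.6%, 8.7% and 20.6% of all genes. Y641F did not overlap WT in 4 members, lower in KMT2B and NSD1 (40.5% of all genes were lower) and higher in KMT2D and NSD3 (15.6% were higher). A677G lay below WT in KMT2D (30.6% of all genes) and above it in SETD2 and ASH1L (19.3%), and H689A/F667I below it in KMT2B, NSD1 and NSD2 (25.4%) and above it in SETD2 (19.3%). In none of the 9 were all 4 GOF libraries below the other 4 (7.11% of all genes).

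The order of the members by mean fold over the 8 libraries was SETD2 (4.47), ASH1L (4.19), KMT2B (3.89), NSD2 (3.48), KMT2A (3.10), NSD3 (2.85), NSD1 (2.76), KMT2C (2.71) and KMT2D (2.62). Each neighbouring pair overlapped in its range over libraries. SETD2 stood at the 59.0 percentile of the 10968 genes with a promoter peak in every library, and the last 4 stood below the 2nd percentile. In width the order was different. Among the same genes KMT2A, by its summed width, was at the 96.9 percentile while KMT2C and KMT2D were at 25.5 and 28.0.

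**Figure D4:**
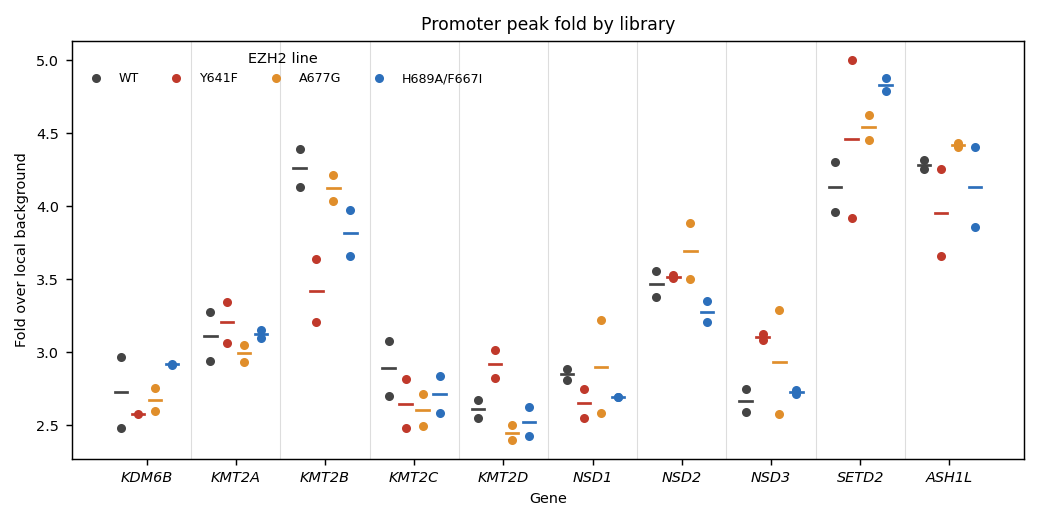
Fold over local background of the strongest promoter peak of each gene (x axis) in each library (points, coloured by line), with line means over 2 libraries as short bars; KDM6B has no value in Y641F replicate 1. SETD2 and ASH1L have the highest means over the 8 libraries (4.47 and 4.19) and KMT2D the lowest (2.62), and the GOF libraries overlap the others in all 9 genes with a value in every library.

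Inside the gene bodies, open chromatin of these genes was sparse and shrank most in Y641F. Summed over the 10 genes, peaks other than promoter peaks covered 19744 and 18933 bp in WT, 5687 and 10501 bp in Y641F, 10819 and 12752 bp in A677G, and 11449 and 13485 bp in H689A/F667I. The number of these peaks was 33 and 34 in WT. Y641F had 14 and 23, A677G 25 and 26, and H689A/F667I 24 and 30. No mutant library reached either WT library in covered length. Gene by gene, Y641F lay below WT without overlap in 8 of 9 members, against 71.1% of all genes. For A677G this count was 7 (58.8% of all genes) and for H689A/F667I it was 5 (45.4%).

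KMT2C and ASH1L, with gene bodies of 301723 and 227895 bp, held the most in WT. ASH1L had 4254 and 3328 bp in WT, 1219 and 1835 bp in Y641F, 1843 and 2766 bp in A677G, and 2022 and 2306 bp in H689A/F667I. It fell by 1.27 in Y641F on the log2 scale (SE 0.31, adjusted p = 0.033, limma), close to the median fall of all genes of 1.43. KMT2C had 5003 and 5880 bp in WT, 1870 and 3804 bp in Y641F, 3669 and 5099 bp in A677G, and 3552 and 4533 bp in H689A/F667I. The KMT2C difference in Y641F, −0.99 (SE 0.37, adjusted p = 0.087), did not pass.

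Among the other members, SETD2 and NSD1 had the largest Y641F differences with wide errors. Y641F libraries with 0 bp entered these tests at the pseudocount of 100 bp, so the size of both differences depended on it. SETD2 had 843 and 1093 bp in WT, 0 bp in both Y641F libraries, 0 and 308 bp in A677G, and 0 and 1012 bp in H689A/F667I (−3.41, SE 1.23, adjusted p = 0.080 in Y641F). NSD1 had 1191 and 1818 bp in WT, 0 and 200 bp in Y641F, 1050 and 0 bp in A677G, and 499 and 1162 bp in H689A/F667I (−3.18, SE 1.21, adjusted p = 0.090). NSD2 had a smaller difference, at 1856 and 1397 bp in WT and 1466 and 1166 bp in Y641F (−0.28, SE 0.30, adjusted p = 0.45). Both of its intragenic regions were open in every library.

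Only ASH1L of the 9 members tested passed in Y641F, where 26.9% of 10729 genes passed, and 6 of the 9 had an unadjusted p under 0.05, against 46.9% of all genes. None passed in A677G (5.28% of all genes), H689A/F667I (2.74%) or GOF lines against the rest (15.7%), with 0, 1 and 3 at an unadjusted p under 0.05, against 24.2%, 13% and 39.8% of all genes. The median of the 9 was −1.45 in Y641F against −1.43 for all genes. Centring each library turned the ASH1L difference to 0.24 (adjusted p = 0.71), and the 26350 strongest peaks turned it to 1.82 (adjusted p = 0.42). ASH1L also did not pass without either WT library, without Y641F replicate 1 or without either H689A/F667I library (adjusted p from 0.058 to 0.16).

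Direct comparisons of the mutants gave no member past the threshold in any of the 3 measures. In width, 1.7% of all genes passed between Y641F and A677G, 3.23% between Y641F and H689A/F667I, and 0.00722% between A677G and H689A/F667I. In fold the shares were 0%, 0.119% and 0%, and in intragenic cover 0.559%, 3.14% and 0%. Members at an unadjusted p under 0.05 numbered, in the same order, 1, 3 and 0 of 10 in width, against 12.5%, 18.7% and 6.55% of all genes. In fold they numbered 2, 1 and 0 of 9, against 12%, 15.5% and 6.12%, and in intragenic cover 0 of 9 each, against 13.8%, 23.8% and 7.36%. NSD2 had the smallest p of the members for width between Y641F and H689A/F667I, with a difference of −1.15 (SE 0.33, adjusted p = 0.14).

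The regions open in both WT libraries show which sites these changes touched. Of 37 such regions, Y641F lost 8 (open in neither library), against 35.3% of all regions open in WT. A677G lost 5 (20.8% of all) and H689A/F667I lost 4 (14.2% of all). None of the lost regions was a promoter region, of which there were 13, while 7.82%, 2.62% and 1.84% of all promoter regions were lost. Off promoters, the losses were 8, 5 and 4 of 24 regions, against 44.8%, 26.4% and 17.9%. Gains, open in both mutant libraries and in neither WT library, were 0 of 3 possible regions in every mutant, against 8.77%, 13% and 22.4%. With the same number of peaks in each library, the losses were 0 of 15 regions in each mutant, against 11.6%, 6.82% and 6.09% of all. Y641F lost 15 of the 37 without its replicate 2 (54.8% of all). A677G lost 9 of the 37 without its replicate 2 (35.1%), and 8 of 41 without WT replicate 1 (23.5%).

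**Figure D5:**
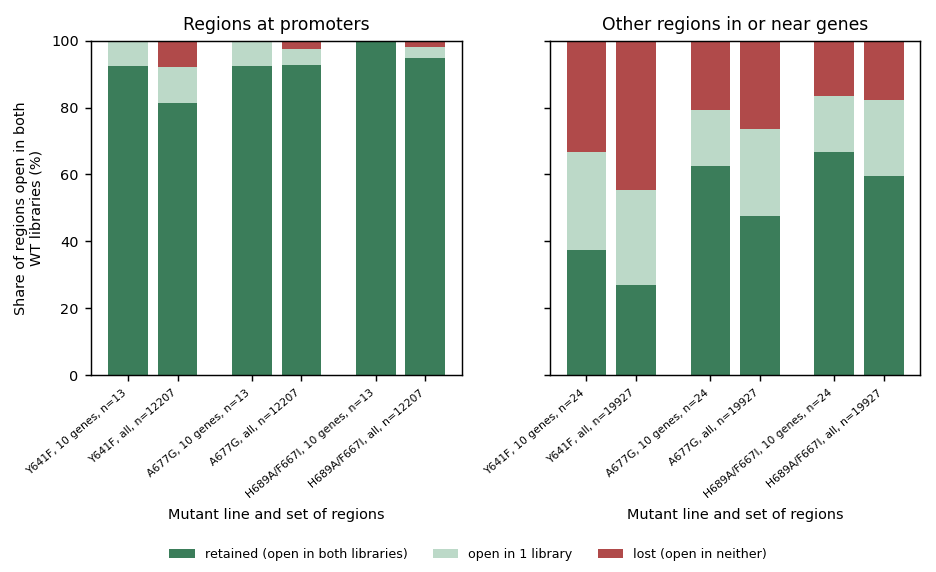
Share in % of regions with a peak in both WT replicates that were retained (open in both mutant libraries), open in 1, or lost (open in neither), at promoters (left) and elsewhere in or near genes (right), for the 10 genes and for all genes. At promoters the 10 genes have no lost region in any mutant; elsewhere 8, 5 and 4 of 24 regions were lost in Y641F, A677G and H689A/F667I.

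The lost regions were mostly small and weak. In Y641F their mean −log10 p in WT ranged from 3.80 to 8.41 with a median of 5.01, against a median of 8.79 in the 21 retained regions. Over all genes the medians were 5.28 for lost and 10.5 for retained regions. The median WT width was 316 bp for the lost and 1318.5 bp for the retained regions. These are unlike sets, since 12 of the 21 retained regions were promoter regions and no lost region was. Off promoters, the 9 retained regions had a median −log10 p of 8.79 and a median WT width of 683 bp. Over all genes, the off-promoter medians of −log10 p were 5.29 for lost and 8.87 for retained regions.

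Besides the KDM6B site at exons 18 and 19, an NSD1 site in intron 2 (chr5:177153979-177154281, printed above) was lost in all 3 mutants. Its WT peaks of 281 and 303 bp had folds of 3.28 and 2.86. The KMT2C site in intron 2, 94.1 kb from the start (chr7:152341456-152341912), had the highest mean −log10 p in WT of the lost regions. It had folds of 5.28 and 3.68 and −log10 p of 10.5 and 6.33 in WT, no peak in Y641F, A677G or H689A/F667I replicate 1, and a 200 bp peak in H689A/F667I replicate 2.

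The remaining losses were found in 1 or 2 mutants. In KMT2A, the intron 10 and exon 11 site (chr11:118488358-118488741, with a CTCF match) had folds of 4.02 and 5.14 in WT and 3.26 in A677G replicate 2, and was lost in Y641F and H689A/F667I. The last exon of KMT2A, exon 36 (chr11:118522680-118523129), was lost in Y641F and A677G, as was an NSD1 site in intron 5 (chr5:177231999-177233513). A KMT2C site in intron 1 near an alternative start (chr7:152433733-152434941) was lost in Y641F and H689A/F667I. The NSD3 site in intron 19 (chr8:38286410-38286992) was lost in Y641F, and was open in 1 library of each other mutant.

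Against these stood 8 intragenic regions open in every library. The KMT2C region 51.5 kb into intron 1 (chr7:152383345-152384526) had folds from 3.73 to 5.03, highest in Y641F replicate 1. The NSD2 region in intron 1 (chr4:1898828-1899586, with a CTCF match) had folds of 4.11 and 5.54 in WT. Y641F had 3.44 and 4.65, A677G 5.02 and 4.67, and H689A/F667I 5.43 and 5.29. A KMT2D region in intron 1 near an alternative start (chr12:49056043-49056355) measured 297 and 296 bp in WT and between 217 and 289 bp in the mutants, with folds from 3.30 to 4.86. The others included ASH1L intron 4, KDM6B exon 3, NSD2 intron 9 and the last exon of KMT2D. The KMT2D region in its last exon (chr12:49017982-49020269) also holds the start of PRKAG1, so its peaks cannot be assigned to KMT2D alone. Outside the gene bodies, a region past the end of KMT2B and one upstream of NSD3 were also open in all 8 libraries.

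The partners of these enzymes, 31 genes in 5 lists, were measured in the same way. In promoter width 3 of 31 fell in Y641F, against 11.8% of all genes: CXXC1, a COMPASS subunit that binds unmethylated CpG (−1.18, SE 0.23, adjusted p = 0.030), WDR5, the scaffold shared by the KMT2 complexes (−1.25, SE 0.27, adjusted p = 0.041), and PAGR1, a subunit of the KMT2C and KMT2D complexes (−0.60, SE 0.14, adjusted p = 0.0499). In limma none passed in A677G, H689A/F667I or GOF against the rest, with 5, 3 and 8 of 31 at an unadjusted p under 0.05. In fold, 0 of 30 passed in Y641F, A677G, H689A/F667I or GOF against the rest, with 8, 5, 1 and 7 at an unadjusted p under 0.05. The shares of all genes at these limits are those given above for the members.

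In intragenic cover, 8 of the 23 partners tested fell in Y641F, 2 in A677G, 1 in H689A/F667I and 4 in GOF lines against the rest, and none rose. By list, the Y641F falls were 5 of 6 COMPASS subunits tested, 1 of 3 K36 readers and 2 of 7 demethylases of K36 and K4. ASH2L, a core COMPASS subunit, fell by 1.84 (SE 0.32) in each of the 3 mutants, with adjusted p of 0.015, 0.035 and 0.045 (limma). Such equal values would follow if no mutant library had an intragenic peak in ASH2L. Their size would then depend on the WT cover and the pseudocount of 100 bp. NCOA6, a subunit of the KMT2C and KMT2D complexes, fell by 1.03 in Y641F (SE 0.20, adjusted p = 0.020). These counts stand beside the 26.9%, 5.28%, 2.74% and 15.7% of all genes given above.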

How the data were processed

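ATAC-Seq peak lists of 8 libraries, 2 for each of 4 HEK293T lines, were used. Sample titles gave the groups and replicate numbers. In the methods of the study, the authors trimmed reads, aligned them to GRCh38/hg38, removed duplicates and called peaks in each library. The submitters' processing notes name Trim Galore 0.6.5, BWA 0.7.17, MACS2 2.2.7.1 and deepTools 3.5.1. The deposited broad peaks give a fold (ratio of pileup over local background, computed by the authors' peak caller). Each deposited peak further has its −log10 p and −log10 q. The score column was left out. The lowest −log10 q was 1.00 and the shortest peak 200 bp. How reads were shifted for the transposase and the read depth are not given in the sources used here, and read counts were not used here, so the count-based test of the study was replaced by tests of peak values. A less deeply sequenced library can yield fewer and narrower peaks.

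Promoter width was the total width of peaks (1 in most cases, 2 in some libraries for KDM6B, KMT2A and NSD3) within 1 kb of the main (Ensembl canonical) start in GENCODE 44. Promoter fold was that of the promoter peak with the highest −log10 p. Intragenic cover was the gene body length under all other peaks. Widths were analysed as log2(bp + 100) in genes with a value in at least 2 libraries, and folds as log2 in genes with a promoter peak in all 8 libraries. The small values of a gene with no peak depend on this pseudocount of 100 bp. All protein-coding genes were fitted with limma 3.58.1 in R 4.3.3 (empirical Bayes with trend, the 4 lines sharing 1 estimate of the spread), and p-values were adjusted by Benjamini-Hochberg over all genes tested in a contrast. The threshold was an adjusted p of 0.05. The fits were tested on simulated data. The p-values measure the spread between 2 libraries of a line, which the study calls independent biological replicates. Replicates of a line shared between 2 and 17 peaks with the same coordinates, so no library was a copy of the other library of its line. Libraries of different lines were not compared in this way. Sequences were read from RefSeq promoters (GRCh38.p14) and from hg38 with pysam 0.24.0.

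The 10 genes and the lists of partner genes were chosen with earlier results of these data known. All 10 genes are named, with their main start regions, regions lost in at least 2 mutants and intragenic regions open in all 8 libraries, and at most 5 partners by lowest p; the NSD3 region lost in 1 mutant was named after its values were seen. Of the marker genes and of the intragenic regions open in all 8 libraries, 1 each is not reported here. Same-numbered libraries of different lines did not deviate together, with correlations of deviations from −0.03 to 0.05, so replicate numbers were not used as pairs in the main comparison. Alternatives were a stricter −log10 q of 5, the same number of peaks (26350) in each library, centring, the replicate block, leaving out each library, a pseudocount of 10 bp, no minimum, a 5 kb window, and peaks that cover at least 50% of a region. Leaving out libraries for region counts was chosen after seeing the data.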

Additional observations from a re-analysis of the deposited data

Results flagged for a closer look

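Libraries far from the rest of their group of 4 were found in 7 of 76 groups examined (the 4 GOF libraries, or the 4 WT and H689A/F667I libraries, for each gene and measure). The cut used marks about 1 in 20 groups of 4 independent normal values. The groups here pooled different lines, so that rate does not apply, and whether 7 exceeds chance was not tested. NSD2 accounted for 3 of them. Its promoter width was 1859 bp in WT replicate 1, where the nearest of the other 3 was 1494 bp, and 1415 bp in A677G replicate 1, where the nearest GOF library was at 685 bp. The same A677G library had an NSD2 promoter fold of 3.88, against 3.53 in the nearest. NSD1 promoter width was 2071 bp in A677G replicate 2, against 731 bp in the nearest GOF library. KMT2B promoter width was 1064 bp in H689A/F667I replicate 1, against 1365 bp in the nearest. KDM6B promoter fold was 2.48 in WT replicate 1, against 2.91 in the nearest. SETD2 intragenic cover was 308 bp in A677G replicate 2 and 0 in the other 3 GOF libraries.

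In 2 of 88 pairs of mutants examined, every library of the mutants moved in opposite directions from WT. KMT2D promoter fold was above WT in Y641F and below WT in A677G, with means that differed by 0.471. The test of that difference gave 0.25 on the log2 scale (SE 0.08, adjusted p = 0.27, limma). NSD1 promoter width was below WT in Y641F and above WT in H689A/F667I, a difference of −818.5 bp between the means. Its test gave −1.15 on the log2 scale (SE 0.55, adjusted p = 0.32, limma).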

How the results depend on the processing

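Peak lists without reads limit every value here, since depth is unknown and peak number differed 2-fold and more between lines. The number of members past the threshold in promoter width between Y641F and WT was 2. It was also 2 with peaks of −log10 q of at least 5, but these were KMT2A and KMT2B, with KMT2C not tested. No Y641F promoter peak of KMT2A or KMT2B reached that limit, so the pseudocount stood in for their width. It was 3 with a window of 5 kb (KMT2C, KMT2D and NSD2). It was 1 with the same number of peaks in each library (KMT2D, with no WT promoter peak kept) and 0 with centred libraries. It was 1 with the replicate block (KMT2A), 0 with a pseudocount of 10 bp, and 1 with no minimum of libraries (KMT2A). When each library was left out in turn it was 0 to 5, the 5 being without Y641F replicate 2. In A677G it was 1 with peaks of −log10 q of at least 5 (KMT2A, with no A677G promoter peak at that limit). For GOF against the rest it was 2 with that stricter limit, 1 with the replicate block, and 0 to 6 with a library left out, the 6 being without Y641F replicate 2. For intragenic cover in Y641F, the main count of 1 became 0 with the stricter limit (5 members tested), 0 with the same number of peaks (5 tested), 0 with centring, 2 with the replicate block (ASH1L and KMT2C), and 0 to 4 with a library left out; for GOF against the rest it was 0 to 4, the 4 in both cases being without Y641F replicate 2. All other counts of members stayed at 0 when a library was left out. Promoter fold could not be tested under the stricter limit, with 0 members left, and stayed at 0 members under every other alternative. The block changed no other count. The share of all genes that passed also changed with the setting, as given above for Y641F replicate 2 left out. The counts in this paragraph show how calls depend on the setting and are not results about these genes alone.

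Lost regions in Y641F, A677G and H689A/F667I numbered 8, 5 and 4. They numbered 5, 2 and 2 with the stricter limit, 0, 0 and 0 with the same number of peaks, and 16, 13 and 10 when peaks had to cover 50% of a region. With a library left out they ranged from 9 to 15, 5 to 9 and 4 to 6; the 15 was without Y641F replicate 2, and A677G had 9 without A677G replicate 2 and 8 without WT replicate 1. Gained regions were 3, 1 and 2 with the same number of peaks, and 1 in H689A/F667I at 50% cover. They ranged from 0 to 1, 0 to 1 and 0 to 2 with a library left out. Shares of all regions are given above for losses with the same number of peaks and for some libraries left out. The other counts have no such share beside them and are not results about these genes alone. Differences that reversed were KMT2D promoter width (2.83 with the same number of peaks) and ASH1L intragenic cover (1.82 with the same number and 0.24 with centring), all in Y641F against WT. The KMT2D reversal came from WT promoter peaks that were not among those kept, not from a wider peak in Y641F. Over 1512 values of single members under an alternative, 98 changed sign: 32 of 112 with centring, 21 of 84 with the same number of peaks, 38 of 896 with a library left out. The cause of these changes was not tested.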

Other observations

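Besides the 45 regions, the 10 genes held 46 regions open in a single library, so 46 of their 91 regions were of this kind. Over the whole series there were 101836 regions when such regions are counted, of which 61878 were open in at least 2 libraries. WT had 8 and 7 of them, Y641F 3 and 5, A677G 8 and 4, and H689A/F667I 3 and 8. Regions open in at least 2 libraries but in neither WT library numbered 3 of the 45, against 4.88% of all regions. They were an ASH1L pair 14.2 and 34.9 kb from the start and an NSD1 region 131.8 kb from the start. The NSD1 region had a peak in Y641F replicate 2 and H689A/F667I replicate 1, and the ASH1L region at 34.9 kb, which holds the AP-1 site TGANTCA, in replicate 1 of Y641F and A677G and replicate 2 of H689A/F667I.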
